A study of Canis lupus familiaris with 39 samples.

Results

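The genes described here mark segments of the nephron or its glomerulus, and were followed across 10 organs of the dog. They are LRP2, CUBN and DAB2 of the proximal tubule, UMOD of the thick ascending limb, CALB1 of the distal tubule, NPHS1, PODXL and WT1 of the podocyte, and PAX2, a transcription factor of the developing kidney. A probeset, the group of short probes by which an Affymetrix array measures a transcript, was taken for a gene where its only gene symbol was that of the gene. This gave 20 probesets for the 9 genes, out of 42860 probesets and 15115 gene symbols on the array. RNA of pathologically normal kidney, liver, jejunum, pancreas, spleen, peripheral lymph node, lung, heart, skeletal muscle and brain (cerebrum) was hybridized to 39 Affymetrix Canine Version 2.0 arrays. Each organ had 4 arrays, and pancreas had 3. The organs came from 4 dogs, beagles and mixed-breed animals of both sexes whose ages ran from puppy to adult. Each array is a piece of a whole organ. The labels name neither the kidney region that was taken nor the dog behind each array, so p-values measure the spread between these pieces.

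The nephron filters blood in the glomerulus, where podocytes wrap the capillaries and close the gaps between their foot processes with a slit diaphragm. Proximal tubule cells then take filtered proteins back up through the large endocytic receptors megalin (LRP2) and cubilin (CUBN), with DAB2 as an adaptor that ties these receptors to the clathrin machinery. Further along, thick ascending limb cells secrete uromodulin (UMOD) into urine, and distal tubule cells carry calcium across with the buffer calbindin (CALB1).

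The deposited values are log2 values made by robust multichip averaging (RMA), so a difference of 1 is a 2-fold difference of signal relative to the rest of the array. They run from 2.61 to 14.74, and array medians lie between 3.95 and 4.11, so that a value near 4 is that of a typical, dim probeset. All 39 arrays correlated best with another array of their own organ, and the 4 kidney arrays correlated with each other at 0.962 to 0.981. Of 37 organ markers measured, 33 had a mean above 6 in the organ they mark. Those of kidney (SLC12A1, SLC34A1, AQP2 and SLC22A6) had every kidney array above every other array, although AQP2 reached only 5.70. Of 33 markers of other organs, 9 were called lower in kidney (3.94% of all probesets were) by the test described below. Only 1, VIL1 of brush borders, was called higher (7.41%). The pancreas markers CPA1, CEL and PNLIP, enzymes of acinar cells, were also measured above the level of dim probesets in 3 skeletal muscle arrays, with a median of 7.18, 3.61, 8.59 and 10.03 in its arrays 1 to 4 against 13.57 to 13.62 in pancreas.

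Each organ was compared with the unweighted mean of the other 9 organ means in a linear model (limma), with p-values adjusted by Benjamini and Hochberg over all probesets and called at a false discovery rate of 0.001. Enriched means called and more than 10-fold higher, and selective means enriched with no other organ more than 3-fold above its own comparison mean. Of the 20 probesets, 15 differed among organs by limma's F test, which 54.6% of all probesets did. Kidney was higher in 12 (7.41% of all probesets were) and lower in 0 (3.94%). There were 9 enriched probesets (1.07%) and 6 selective ones (0.359%), and in 10 every kidney array lay above the 35 arrays of the other organs (1.39%). These 10 belong to LRP2, CUBN, DAB2, UMOD and CALB1, and they are the 10 with a kidney mean above 5. NPHS1, PODXL, WT1 and PAX2 have no such probeset. In bulk tissue, fewer cells of a type and less RNA per cell cannot be told apart.

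**Figure D1:**
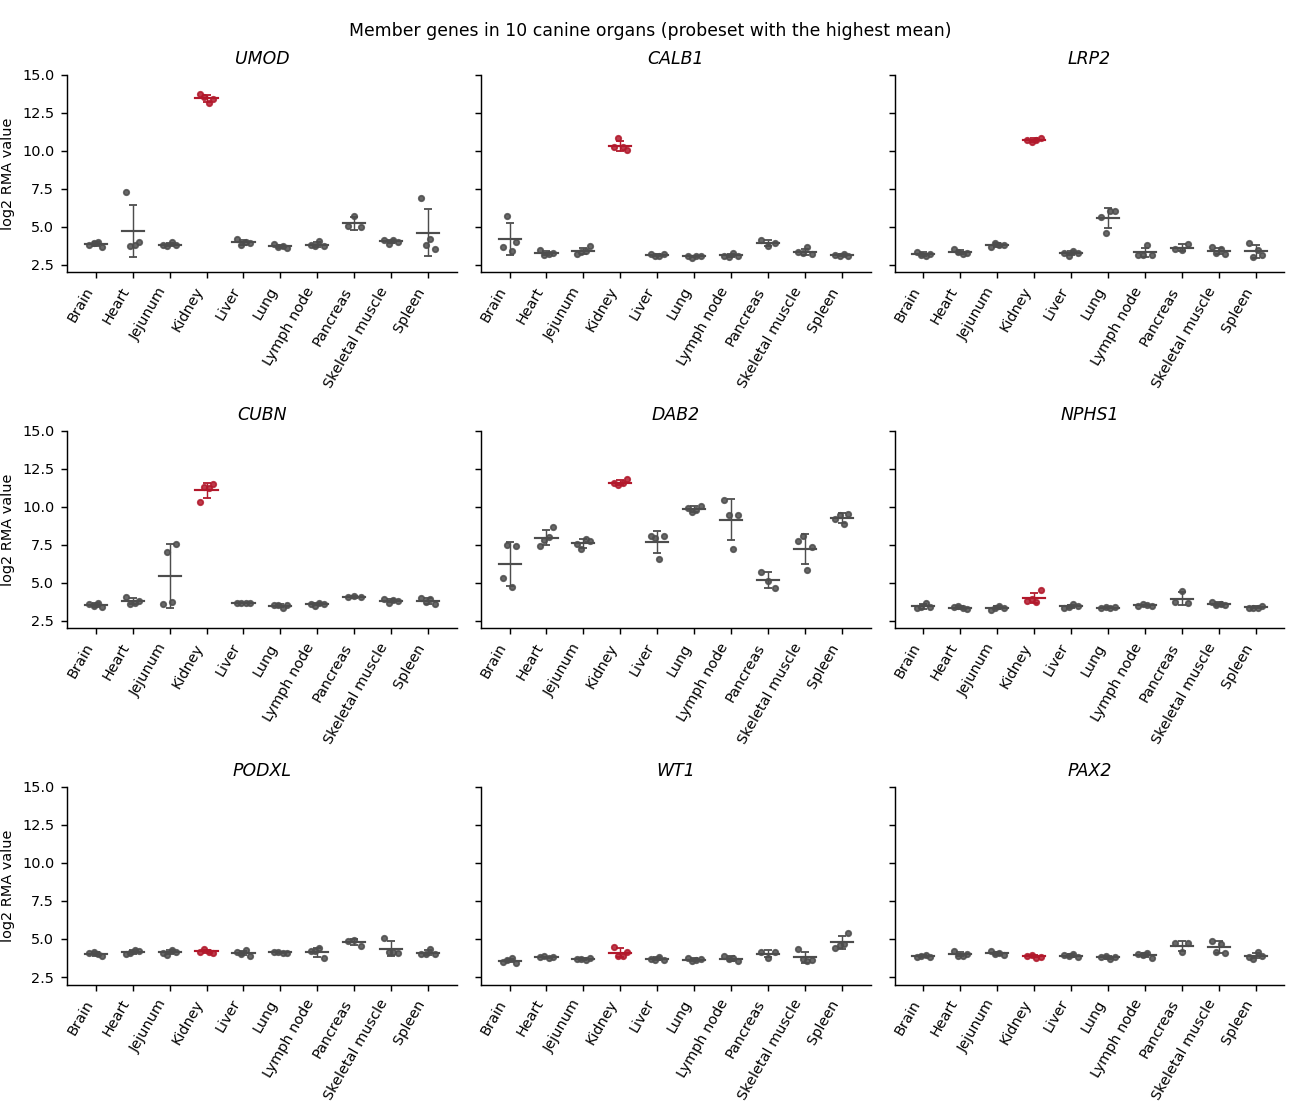
Log2 RMA value of each array (points), with the organ mean and SD (bars), for the probeset of each of the 9 genes with the highest mean over all arrays; kidney is in red. The 5 tubule genes reach kidney means of 10.32 to 13.44, while NPHS1, PODXL, WT1 and PAX2 stay near 4 in kidney.

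Megalin was measured by 5 probesets. In the brightest, the kidney arrays read 10.71, 10.57, 10.69 and 10.83, a spread of 0.10 (SD, n = 4). The lung arrays came next at 5.64, 4.59, 6.02 and 6.04, a mean of 5.57 ± 0.68 (SD, n = 4). All other arrays were at 3.95 or below, so kidney and lung each stood clear of the remaining organs. Kidney exceeded the mean of the other 9 organs by 7.05 ± 0.16 (limma's standard error), a 133-fold difference (adjusted p = 7.19e-27). Lung was 2.56-fold above its own comparison mean (adjusted p = 3.42e-08) and above jejunum, the organ ranked after it (adjusted p = 5.45e-08). Kidney in turn was 34.9-fold above lung (adjusted p = 2.20e-19). From jejunum, at 3.79, down to brain, at 3.18, no neighbours in the order of organs passed the test.

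The second megalin probeset read 8.20, 9.50, 8.65 and 9.99 in kidney and was 56.9-fold higher there (adjusted p = 1.66e-25). In lung it stood at 3.62, 3.39, 3.85 and 3.89, and lung was not called in it. The third gave 4.27, 7.34, 5.88 and 8.31 in kidney, a mean of 6.45 ± 1.77 (SD, n = 4) and an 8.12-fold difference (adjusted p = 7.01e-10). Its 4 kidney arrays thus spanned 4 log2 units, although all lay above every other array. The last pair stayed dim in kidney, at means of 3.67 (1.21-fold, adjusted p = 3.21e-04) and 3.46 (1.14-fold, adjusted p = 0.0190), and their kidney arrays overlapped those of other organs.

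Cubilin, the receptor of the vitamin B12 and intrinsic factor complex as well as of filtered albumin, had 2 probesets. The one with the higher mean over all arrays read 10.33, 11.28, 11.22 and 11.49 in kidney, and kidney was 143-fold higher (difference 7.16 ± 0.36, adjusted p = 4.57e-17). The other read 12.18, 11.66, 11.90 and 11.80 in kidney, a 276-fold difference (8.11 ± 0.62, adjusted p = 2.24e-12). Both had jejunum as the second organ, and in both the jejunum arrays fell into separate pairs. Jejunum arrays 1 to 4 read 3.61, 7.01, 3.71 and 7.52 in the first probeset and 3.23, 9.39, 3.28 and 9.81 in the other. Arrays 2 and 4 were thus far above the level of a dim probeset, and arrays 1 and 3 were at it. Jejunum as a whole was not called in either probeset, yet its mean kept the second one from being selective, at 4.12-fold above its comparison mean. Kidney was 49.1-fold above jejunum in the first (adjusted p = 4.11e-11) and 44.0-fold in the other (adjusted p = 4.49e-06). With jejunum arrays 2 and 4 left out, a choice made after seeing the data, the difference of the first probeset was 7.36 (adjusted p = 6.51e-30). Leaving them out also narrows the spread that the test uses, so this p-value cannot be compared with that of all arrays.

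The same jejunum pair was higher in genes of bile acid uptake and in GCG. A set of 18 intestinal genes was looked up after the cubilin values were seen and is given without a test. The bile acid transporter SLC10A2 read 3.77, 7.68, 3.91 and 9.26 in jejunum arrays 1 to 4. FABP6, a bile acid binding protein, read 4.05, 5.37, 3.94 and 12.57. The proglucagon gene GCG read 8.67, 10.88, 7.94 and 10.64. In each of these genes, arrays 2 and 4 lay above arrays 1 and 3. The bile acid genes SLC51A, SLC51B and NR1H4 had the same order, and so did SLC5A12, CLCA1 and LCT, a brush border enzyme gene (5.17, 7.39, 6.36 and 6.77). AMN (amnionless), which brings cubilin to the membrane, did not follow them, at 6.64, 6.84, 7.31 and 5.32. Nor did SI, the other brush border enzyme gene, at 11.74, 11.20, 12.14 and 11.78. APOA4 (13.25, 13.25, 12.46 and 12.86), RBP2 (11.792, 12.045, 10.311 and 10.819) and MTTP (8.66, 9.95, 9.46 and 8.86) did not have this order either. GUCA2A had the reverse order, at 9.69, 9.18, 9.51 and 9.40. Among the other hormone genes, GIP ran the opposite way, at 7.94, 6.58, 7.50 and 5.31, and neither CCK (8.56, 9.11, 7.56 and 7.62) nor NTS (9.80, 11.50, 9.22 and 9.75) split into these pairs. The position of each piece along the intestine is not in the labels, and its part in these values was not tested.

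**Figure D2:**
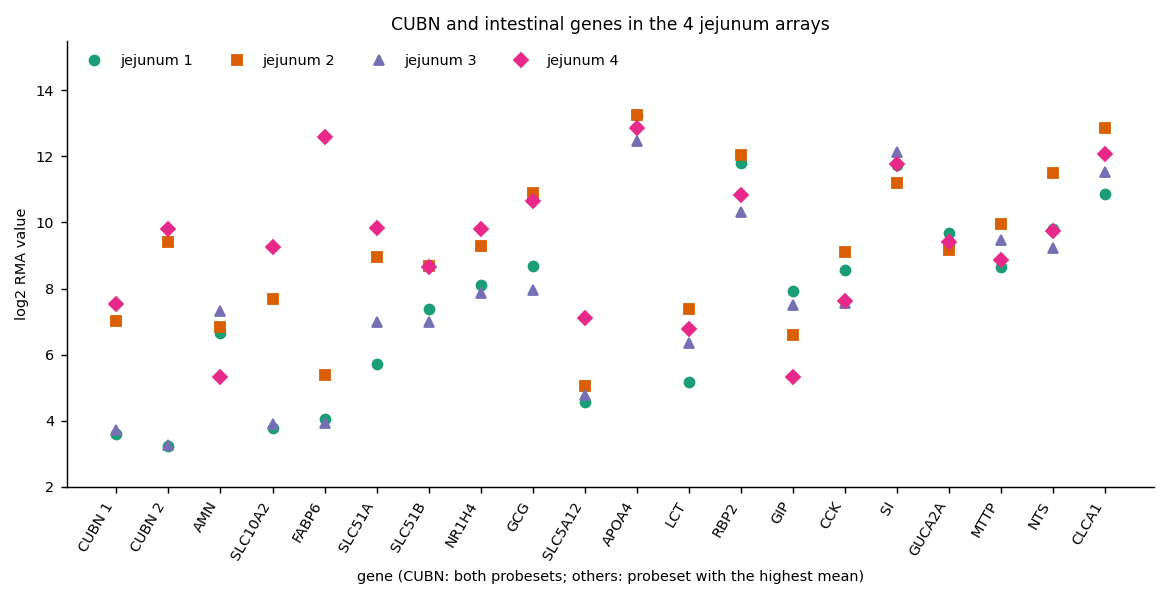
Log2 RMA value of both cubilin probesets and of 18 intestinal genes in the 4 jejunum arrays, one symbol per array. Arrays 2 and 4 are above arrays 1 and 3 in CUBN, SLC10A2, FABP6 and GCG, and not in AMN, GIP or SI.

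DAB2 was the least restricted of the tubule genes. Its brightest probeset read 11.58, 11.43, 11.55 and 11.81 in kidney, and 9.92, 9.63, 9.79 and 10.05 in lung. Spleen read 9.18, 9.48, 8.86 and 9.50, and lymph node 10.46, 9.45, 7.25 and 9.45. No array of another organ reached the kidney arrays, and lymph node array 3 was far below its mates. Kidney was 13.9-fold above the mean of the other organs (3.80 ± 0.40, adjusted p = 4.66e-09), but its 3.35-fold difference from lung was not called (adjusted p = 0.0177). Lung itself was 3.63-fold above its comparison mean (adjusted p = 6.39e-04), so the probeset was enriched and not selective. Brain, at 5.32, 7.48, 4.70 and 7.41, and pancreas, at 5.72, 5.09 and 4.69, were lower than their comparison means (adjusted p = 5.90e-05 and 5.82e-07).

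The second DAB2 probeset had the same leading organs. Kidney read 10.01, 10.95, 10.58 and 11.45 and was 27.0-fold higher (adjusted p = 8.34e-11). Lung had a mean of 8.24 ± 0.33 (SD, n = 4), and here its 5.66-fold distance to kidney was called (adjusted p = 9.98e-04). The third probeset was dim, with kidney at 3.69, 3.57, 4.93 and 3.61 (adjusted p = 0.0424).

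DAB2 is also made by macrophages, so a list of 11 macrophage genes was set beside it. In kidney, 7 of the 11 were lower (3.94% of all probesets were) and 0 higher (7.41%) than in the other organs, the median difference was -1.83, and 2 had a mean above 6. The number with a mean above 6 was 8 in lung, lymph node and spleen, and 9 in liver. The median organ mean of the list was 9.01 in spleen, 8.73 in liver, 7.68 in lymph node and 6.20 in lung, against 4.52 in kidney. Its brightest genes in lung were MRC1, at 8.92 to 9.74, and C1QA, at 8.12 to 9.07, and in kidney C1QA ran from 6.46 to 7.33. Kidney, with the highest DAB2 mean, had 2 of these genes above 6. Liver, with 9, had a DAB2 mean of 7.66, below lung, spleen and lymph node. The part of macrophages in the DAB2 values was not tested in any organ.

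Uromodulin, in its bright probeset, had the largest kidney difference among the 20 probesets. Kidney arrays read 13.72, 13.50, 13.15 and 13.40, which is 9.26 ± 0.39 above the mean of the other organs (611-fold, adjusted p = 4.10e-19). Pancreas was second, at 5.02, 5.70 and 4.94, and kidney was 298-fold above it (adjusted p = 2.06e-13). Pancreas was not called in its own comparison. After pancreas, no neighbours in the order of organs passed the test.

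A pair of arrays outside kidney stood apart for uromodulin. Heart array 1 read 7.29 and the other hearts 3.76, 3.76 and 4.02. Spleen array 1 read 6.85 and the other spleens 3.82, 4.20 and 3.50. Kidney-selective probesets were compared in the same arrays. The bright uromodulin probeset is among them and is counted as raised in both arrays. Of the 154 kidney-selective probesets, heart array 1 was more than 1 log2 unit above the mean of the other hearts in 3 (1.95%, against 0.574% of all probesets), and spleen array 1 was so in 7 (4.55%, against 2.82%). Some arrays with a dim uromodulin signal had more of them, with 15 in jejunum array 4 (9.74%, against 1.99%). Liver arrays 2 and 4 had 10 each (6.49%, against 3.19% and 2.54%), and skeletal muscle array 1 had 9 (5.84%, against 3.78%). Heart array 1 was the highest heart in 47.4% of the 154 (23.7% of all probesets), and spleen array 1 the highest spleen in 31.8% (18.5%). Arrays with a dim uromodulin signal also had high shares. Skeletal muscle array 1 had 47.4% (40.6%), spleen array 3 had 44.2% (44.4%) and lymph node array 1 had 39% (28.1%). The 154 were selected on these same data as high in kidney alone, so all probesets are not a matched background for them. The median of the 4 kidney markers lay between 3.62 and 3.82 over the heart arrays and between 3.49 and 3.87 over the spleen arrays. Among these 4 markers, SLC34A1, the phosphate transporter of the proximal tubule, read 4.47 in heart array 1 and 3.21 to 3.64 in the other hearts. In spleen array 1 it read 3.83, against 3.23 to 3.34 in the other spleens. Without these arrays, left out after the values were seen, the uromodulin difference was 9.44 (adjusted p = 7.49e-33). This choice also narrows the spread that the test uses, so the p-values with and without these arrays cannot be compared. Traces of kidney RNA were not tested as a source.

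The second uromodulin probeset did not follow the first. It read 4.46, 4.34, 4.36 and 4.40 in kidney, where it was 1.18-fold higher and not called (adjusted p = 0.0694). Heart array 1 and spleen array 1 stood at 4.25 and 3.84 in it, among the other arrays. Its highest organ was pancreas, at 4.56, 5.04 and 4.72, which was called (1.58-fold, adjusted p = 9.83e-06).

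Calbindin had 3 probesets. The brightest read 10.25, 10.79, 10.21 and 10.04 in kidney, a 122-fold difference (6.93 ± 0.19, adjusted p = 3.81e-24). The next read 7.85, 9.17, 8.62 and 7.96 and was 33.1-fold higher (adjusted p = 1.25e-25). The third, with kidney at 4.09, 3.75, 4.25 and 3.67, was not called (adjusted p = 8.32e-03). Calbindin is also made by neurons, and in the brightest probeset the cerebrum arrays read 3.66, 5.71, 3.42 and 3.996. Brain array 2 was thus above every array outside kidney, while array 4 lay among those of pancreas, and brain was not called higher. In the second probeset the brain arrays lay between 3.57 and 3.74. Of 9 genes of inhibitory neurons, 4 had a mean above 6 in brain, and the median of the list was 4.80, 6.57, 4.80 and 5.57 in brain arrays 1 to 4. Its brightest genes there were GAD1, at 9.71 to 11.05, and SST, at 9.11 to 10.28. Brain array 2 was the highest both in the median of the list and in calbindin, and the part of these neurons in the calbindin values was not tested. Kidney was 70.0-fold above brain for calbindin (adjusted p = 1.91e-19).

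**Figure D3:**
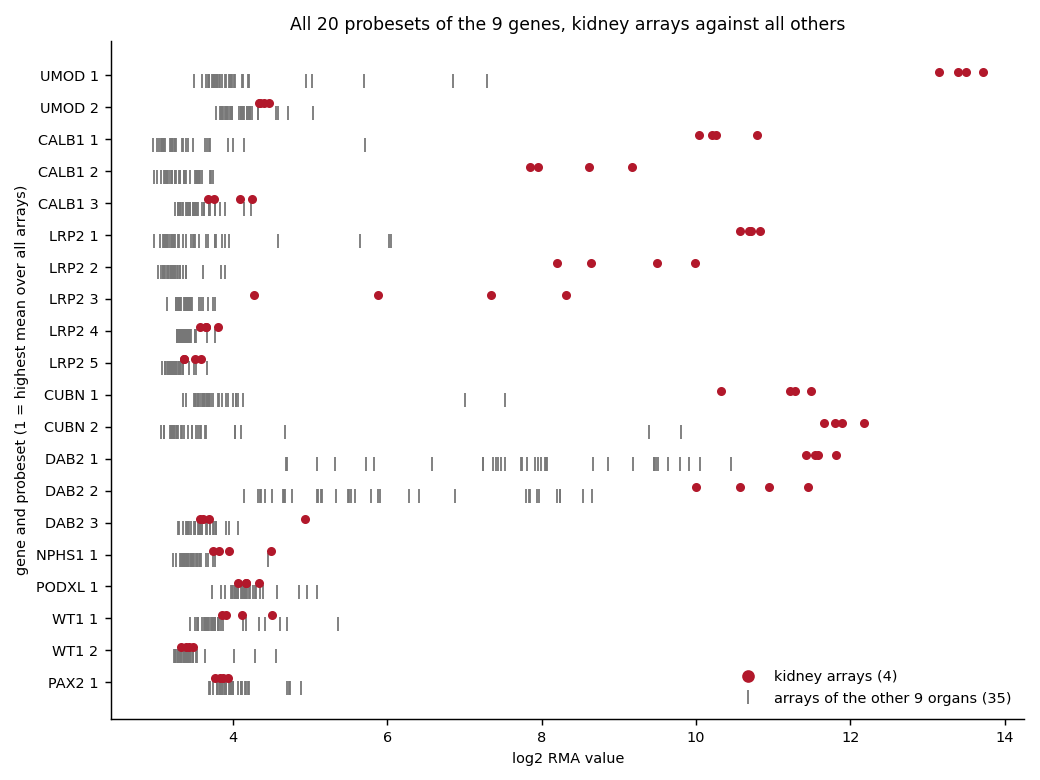
Log2 RMA values of all 20 probesets, with the 4 kidney arrays as red points and the 35 arrays of other organs as grey ticks; probesets of a gene are numbered from the highest mean over all arrays. Kidney stands clear of all other arrays in 10 probesets, and in the other 10, whose kidney means run from 3.41 to 4.39, it lies among them.

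The podocyte genes were dim. Nephrin (NPHS1), the core protein of the slit diaphragm, read 3.82, 3.95, 3.74 and 4.50 in kidney. It was called higher there, by 0.51 ± 0.10 or 1.42-fold (adjusted p = 1.12e-04). Pancreas, at 3.75, 4.46 and 3.65, overlapped the kidney arrays, and the direct comparison with it was not called (adjusted p = 0.798). Without kidney array 4, the highest, the difference was 0.34 and no longer called (adjusted p = 0.00697).

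Podocalyxin (PODXL), the sialic acid-rich coat protein of podocytes and of endothelium, read 4.17, 4.33, 4.17 and 4.07 in kidney. Its kidney difference was -0.02 ± 0.11 (adjusted p = 0.900), and its sign turned under several other settings. Pancreas was called higher, at 4.85, 4.96 and 4.57 (1.57-fold, adjusted p = 1.21e-04). In the list of 15 endothelial genes, set beside podocalyxin as the other source of it, kidney was higher in 2 (7.41% of all probesets were) and lower in 1, VWF (3.94%), and the median difference was -0.0049. The 2 higher genes were also the brightest of the list in kidney, PECAM1 at 8.88 to 9.65 and EMCN at 8.58 to 9.51.

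WT1, a zinc finger transcription factor that podocytes keep through life, was highest in spleen. Its brighter probeset read 4.42, 4.61, 4.70 and 5.36 in spleen, and 4.51, 3.86, 3.91 and 4.11 in kidney. Only kidney array 1 reached into the range of the spleen arrays. Spleen was 1.99-fold above its comparison mean (adjusted p = 5.64e-08), and kidney was not called (1.18-fold, adjusted p = 0.148). Without kidney array 1, the WT1 difference of kidney fell from 0.24 to 0.10 (adjusted p = 0.574). Spleen against kidney, at an adjusted p of 0.00117, just missed the threshold. WT1 is also known from mesothelium, which covers the spleen. Of 6 mesothelial genes measured, 0 had a mean above 6 in spleen, and the list's median there was 3.66. KRT8, a keratin of many epithelia, was its brightest gene in spleen, at 4.80 to 5.65, followed by UPK1B at 3.69 to 3.92. The spleen arrays of WT1 were themselves below 6, and the part of mesothelium in them was not tested. The other WT1 probeset was level in spleen and kidney, at 3.39 and 3.41, and was called higher in pancreas, at 4.29, 4.01 and 4.56 (1.87-fold, adjusted p = 5.89e-12). The probesets of WT1 thus named different organs.

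PAX2 read 3.87, 3.94, 3.77 and 3.84 in kidney, the second lowest organ mean of the 10. Its kidney difference was -0.20 ± 0.10 (adjusted p = 0.148). Pancreas, at 4.74, 4.16 and 4.73, and skeletal muscle, at 4.88, 4.17, 4.70 and 4.11, were called higher (1.48-fold and 1.39-fold, adjusted p = 9.86e-05 and 2.45e-04). The direct comparisons gave kidney below both organs (adjusted p = 2.03e-04 for pancreas and 4.77e-04 for skeletal muscle). The skeletal muscle arrays that held the pancreas markers were 1, 3 and 4, and PAX2 was high in 1 and 3 but at its lowest in 4, which held the most. These arrays were then left out, a choice made after seeing the data that leaves 1 skeletal muscle array. The PAX2 difference was then 1.13-fold in skeletal muscle and 1.52-fold in pancreas. The arrays left out include those with the highest PAX2 values, 4.88 and 4.70, so a smaller skeletal muscle difference followed from the choice. The part of pancreas tissue in the skeletal muscle values was not tested.

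Calls outside kidney numbered 9 over the 20 probesets: 4 in pancreas (UMOD, PODXL, WT1 and PAX2, against 13.4% of all probesets), 3 in lung (LRP2 and both bright DAB2 probesets, 7.26%), 1 in skeletal muscle (PAX2, 7.06%) and 1 in spleen (WT1, 5.38%). Brain (11.2%), lymph node (9.95%), heart (7.47%), liver (6.72%) and jejunum (6.12%) had 0 of the 20 called higher by limma. The pancreas calls all fell on dim probesets. Among the 26420 probesets with fewer than 3 arrays above 6, 17.7% were called higher in pancreas, while the other organs had 1.89% to 5.99%. Of the 11 probesets of the 9 genes that are dim by this rule, 4 were called higher in pancreas and 3 in kidney (2.81% of the 26420). The third LRP2 probeset is among these 11, although its kidney mean was 6.45. All values of the 10 probesets with a kidney mean below 5 lay between 3.08 and 5.37, where most probesets of the array lie, so low or absent transcripts and probes that bind poorly cannot be told apart in them.

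The comparison mean of every organ but kidney includes kidney, and calls below it lay only in bright probesets of LRP2, CALB1 and DAB2. They numbered 4 in brain (7.74% of all probesets), heart (6.55%), liver (6.15%), lymph node (6.93%), pancreas (11.1%) and spleen (4.83%), 3 in skeletal muscle (8.14%), 2 in lung (4.22%) and 1 in jejunum (3.85%). Compared with single organs, kidney was higher in 11 probesets against brain (7.23% of all probesets), heart (6.75%) and jejunum (5.29%), and in 10 against pancreas (9.87%), skeletal muscle (8.22%), lymph node (7.91%), spleen (7%), lung (5.86%) and liver (5.12%).

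The 4 kidney arrays did not rank alike across genes. In the brightest probeset of LRP2 and of DAB2, they stayed within 0.22 of the kidney mean. In the second LRP2 probeset, the third LRP2 probeset, the first CUBN probeset and the second DAB2 probeset, kidney array 1 was the lowest and array 4 the highest. Their deviations were -2.18 and 1.86 in the third LRP2 probeset, and -0.75 and 0.41 in the first of CUBN. The other CUBN probeset had array 1 as the highest, at 0.30 above the mean. Calbindin was highest in kidney array 2 in both bright probesets, at 0.47 and 0.77 above the mean, and uromodulin was highest in array 1 (0.28). Probesets of the same gene thus ordered the same pieces of kidney differently.

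**Figure D4:**
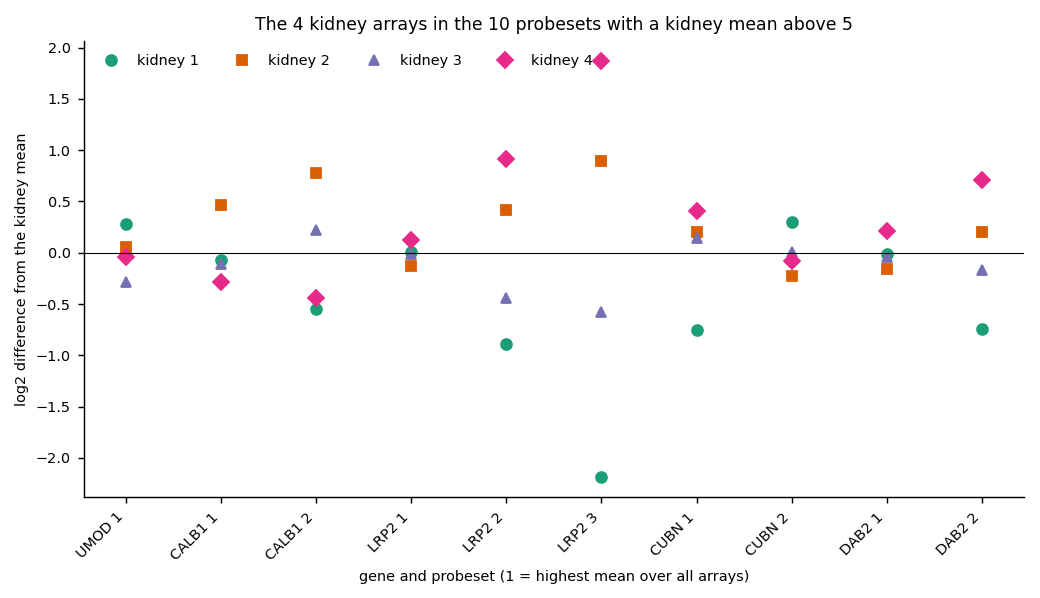
Log2 difference of each kidney array from the kidney mean in the 10 probesets with a kidney mean above 5, with a symbol per array. Array 1 (circles) is lowest and array 4 (diamonds) highest in LRP2 2, LRP2 3, CUBN 1 and DAB2 2, and this order is absent from CUBN 2 and from CALB1.

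Other genes of each segment were described from lists, against a median kidney difference of -0.07 over all probesets, of which 7.41% were higher and 3.94% lower in kidney. Of 27 podocyte and glomerular basement membrane genes measured (of 30 listed), 3 were higher in kidney (7.41% of all probesets were), 0 were lower (3.94%), and the median difference was -0.01. COL4A3, a collagen chain of the glomerular basement membrane, was 9.50-fold higher. It read 6.04, 7.27, 6.53 and 8.36 in kidney and 6.13, 6.91, 6.16 and 4.44 in lung, which overlap. DACH1 differed by 2.45 and ARHGAP24 by 2.33, both called, and VEGFA by 0.97 (adjusted p = 0.0228, not called). The smallest differences were -0.54 for ROBO2 and -0.36 for PLA2R1. Synaptopodin (SYNPO) and PTPRO, further genes of the podocyte foot process, had kidney means of 4.22 and 3.51 and were not called.

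Of 29 proximal tubule genes (of 35), 22 were higher, 1 was lower, and the median difference was 4.12. The largest differences were those of the transporters SLC34A1 (9.13) and SLC17A3 (6.44), of PCK1, a gluconeogenic enzyme (6.15), and of GATM, which starts creatine synthesis (6.12). The smallest were those of the glucose transporter SLC5A1, which was lower in kidney (-0.34), and of SLC47A1 (-0.25, not called). Of 21 partners of the endocytic receptors (of 25), 9 were higher and 0 lower, with a median of 0.19. The scaffold PDZK1 was 67.1-fold higher, AMN 14.9-fold, the scaffold SLC9A3R1 5.25-fold, and LRPAP1, the chaperone of megalin, 3.82-fold. APPL1 (-0.43) and EPS15 (-0.38) were lowest and not called. AMN read 8.29, 9.01, 8.93 and 8.66 in kidney, above every other array.

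Of 13 genes of the thick ascending limb and macula densa (of 17), 8 were higher and 0 lower, with a median of 0.95. EGF differed by 5.19, the claudin CLDN10 by 4.31, the sodium, potassium and chloride cotransporter SLC12A1 by 4.29 and the potassium channel KCNJ1 by 1.52. CLDN14 (-0.15) and NOS1 (-0.09) were lowest and not called. EGF and CLDN10 had their highest mean in pancreas, unlike SLC12A1, which was selective for kidney. Of 19 genes of the distal convoluted and connecting tubule (of 21), 3 were higher (7.41% of all probesets were) and 0 lower (3.94%), with a median of -0.07. FXYD2, a sodium pump subunit, differed by 7.70. The thiazide-sensitive cotransporter SLC12A3 was 31.9-fold higher, the kinase WNK4 differed by 3.44, and TRPM7 by 0.26 (not called). The calcium pump ATP2B4 (-1.86) and PVALB (-1.01) were lowest and not called.

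Of 23 collecting duct genes (of 24), 16 were higher and 0 lower, with a median of 1.36. HSD11B2, which inactivates cortisol, differed by 5.25, the proton pump subunits ATP6V1G3 and ATP6V0D2 by 4.75 and 3.84, and the ammonia transporter RHBG by 4.27. UPK1B (-0.30) and AQP4 (-0.16) were lowest and not called. Of 15 kidney development transcription factors (of 23, WT1 among them), 5 were higher and 0 lower, with a median of 0.42. TFAP2B differed by 2.56 and LHX1 by 0.88, both called. IRX3 (1.26, adjusted p = 0.0261) and MEIS2 (0.81) were not called, nor were EYA1 (-0.12) and OSR1 (-0.06). PAX8, the close relative of PAX2, was called at 0.74, with kidney at 4.22, 4.73, 4.67 and 5.38.

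**Figure D5:**
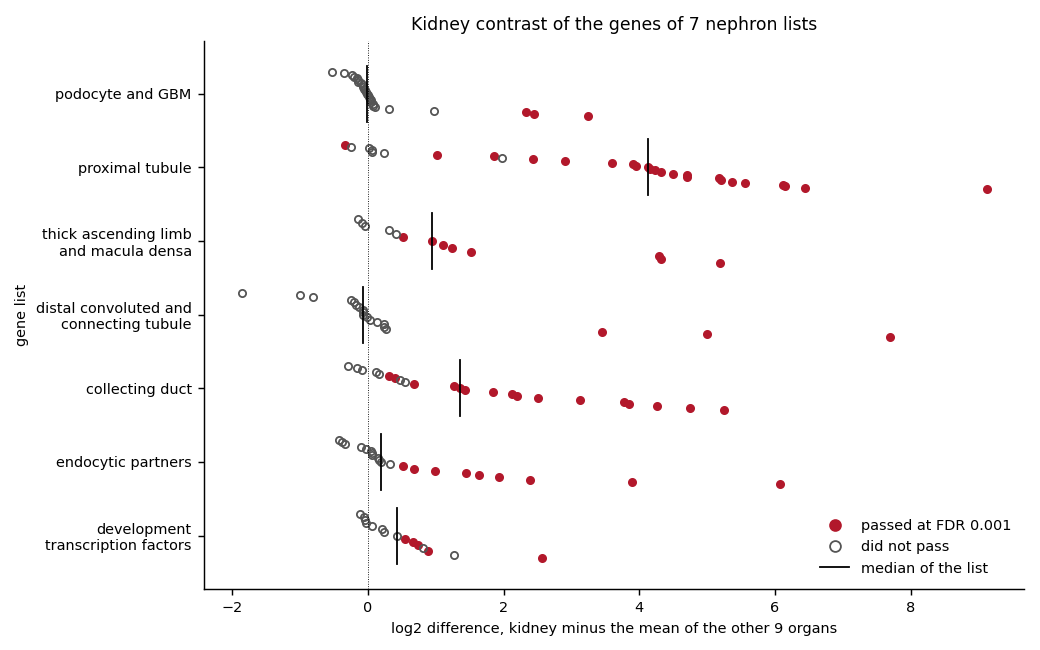
Log2 kidney difference of each measured gene in 7 lists of nephron genes, filled where the gene passed at a false discovery rate of 0.001, with the list's median as a line. The proximal tubule list has a median of 4.12 and the podocyte and glomerular basement membrane (GBM) list one of -0.01.

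Genes of other cells that a piece of kidney, or of a compared organ, could hold were counted in the same comparison, in which 7.41% of all probesets were higher and 3.94% lower. The 6 mesothelial, 6 adrenal and 6 adipose genes had 0 called in either direction in limma's test. The 9 inhibitory neuron genes had 3 lower (GAD1, RELN and SST) and the 7 islet genes 2 lower (INS and SST). Of 6 ependymal and choroid plexus genes, 2 were higher, of which AQP1 is also a water channel of the proximal tubule.

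For each of the 9 genes, the other symbols whose probeset had the most similar profile were found by Pearson's r over the 10 organ means. With 10 organs and 1 of them far above the rest, any kidney-high gene gives a high r, so these values are a description. UMOD was most like TMEM252 and KIF12 (both 0.996) and SLC12A3 (0.995), and CALB1 most like CBLN4, LOC475367 (both 0.996) and ITGB8 (0.994). LRP2 was most like SCNN1G (0.990), KCNJ15 (0.987) and C10H2orf73 (0.980). CUBN was most like SLC5A12 (0.998), a lactate transporter of the proximal tubule, HSD11B2 (0.991) and RNF152 (0.990). SLC5A12 shares with CUBN a high jejunum array 4, at 7.10 against 4.57 to 5.05 in the other jejunum arrays. DAB2, the least restricted, reached 0.939 with CTSB, a lysosomal protease, 0.913 with RPS28 and 0.898 with LCORL.

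The dim members had mostly dim companions. NPHS1 was most like ELF5 (0.966), KLK1 and LOC491028 (both 0.958), and of these KLK1, tissue kallikrein, had a kidney mean of 12.66. PODXL was most like OR13C2B, KLK12 (both 0.985) and AP1M2 (0.978), and PAX2 most like CDC14B (0.991), IL5RA (0.988) and GCNT4 (0.984). WT1 was most like PFDN4 (0.936), NTF3 (0.931) and NR6A1 (0.925). All of these but KLK1 had kidney means between 3.07 and 4.54.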

How the data were processed

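RNA of 10 canine organs was hybridized to 39 Affymetrix arrays. The authors made the deposited log2 values in Partek: intensities were adjusted for GC content and for the sequence of each probe, corrected for background by RMA, quantile normalized and summarized per probeset by median polish. Quantile normalization gives all arrays nearly the same distribution, and dim signals are compressed. The values were used as deposited. Groups were taken from the sample labels, and 0 pairs of arrays were identical. Gene symbols came from the platform's annotation table: 29254 probesets have 1 symbol, 439 several and 13167 none. Limma (version 3.58.1, R 4.3.3) fitted a mean per organ, with moderated variances from all 39 arrays. It tested each organ against the mean of the other 9, all organ pairs and an F test, and was tested on simulated data. The scan date used in the study's model is not in the labels. The members and lists were chosen with earlier results of these data known. All probesets of the 9 genes are described, numbered by their mean, and the brightest represents its gene. From each nephron list the 4 largest and 2 smallest kidney differences are named, and for each member the 3 symbols with the highest r. SYNPO, PTPRO, PAX8 and the intestinal genes were picked with their values in view, as was SLC34A1 for the heart and spleen arrays. Alternatives tried were other variance estimates, the replicate number as a block, other scalings, removal of dim probesets, another threshold and leaving out arrays. Genome positions and sequences are not given here. The number of arrays limits the precision.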

Additional observations from a re-analysis of the deposited data

Results flagged for a closer look

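In groups of 4 arrays, 180 sets of values (20 probesets in 9 organs) were searched for an array whose gap to its nearest mate took up most of the range (Dixon's 95% criterion), and 17 were found. Chance gives about 1 in 20. In bright signals, UMOD stood apart in heart array 1 (7.29, other hearts 3.76 to 4.02), DAB2 was low in liver array 3 (6.58, others 7.95 to 8.07), and its second probeset was low in spleen array 3 (5.08, others 7.85 to 8.21). The brightest DAB2 probeset was also lowest in array 3 in brain (4.70), lymph node (7.25), skeletal muscle (5.83), spleen (8.86) and pancreas (4.69). In heart, jejunum, kidney and lung another array was lowest. Most of the 17 flagged values were in arrays numbered 3, and a shared source was not tested.

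The other 14 lay at the level of dim probesets. In spleen array 3 the value was high for CALB1 (3.22), the fourth LRP2 probeset (3.66) and PODXL (4.35). This array was the highest spleen in 44.4% of all probesets. Skeletal muscle array 1 was high for PODXL (5.09, others 4.06 to 4.16) and WT1 (4.34), and array 3 for the fourth LRP2 probeset (3.77). Jejunum array 3 was high for UMOD (3.95), lymph node array 3 for LRP2 (3.78), heart array 1 for the second CUBN probeset (4.03) and brain array 1 for the fifth LRP2 probeset (3.67). Lung array 3 was low for CUBN (3.35). The third DAB2 probeset was high in kidney array 3 (4.93, others 3.57 to 3.69) and low in spleen array 1 (3.29), and NPHS1 was high in spleen array 4 (3.49).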

How the results depend on the processing

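The 5 tubule genes kept their direction and their call in the kidney comparison under all alternatives with a test, and leaving out any array kept the kidney calls at 11 to 12, the F test calls at 14 to 16, the calls in other organs at 7 to 10 and the calls of kidney over single organs at 87 to 96. Calls in other organs changed from 9 to 14 with arrays shifted to equal housekeeping medians, to 3 with dim probesets removed and to 16 at a false discovery rate of 0.05. F test calls fell to 9 with dim probesets removed, where 9 of the 20 probesets were tested. PODXL changed sign with equal array medians (0.0025), against the median of the other organs (0.0627), without skeletal muscle arrays 1, 3 and 4 (0.000915), without kidney array 4 (0.0158) and without skeletal muscle array 1 (0.0034), and ran from -0.0732 to 0.0158 over the fits that left out an array. NPHS1 lost its call without kidney array 4 and with housekeeping scaling (0.36, adjusted p = 0.406). That scaling moved the median kidney difference of all probesets from -0.070 to -0.215, and all kidney calls from 3176 higher and 1690 lower to 1957 and 1181. The mean over all probesets of a gene gave smaller kidney differences for UMOD (4.75), CALB1 (4.12), LRP2 (3.27) and DAB2 (2.97).

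With the replicate number as a block, kidney calls numbered 13 (fixed factor) or 12 (random), and the kidney call of the brightest probeset of each of the 9 genes did not change. Same-numbered arrays of different organs correlated in their deviations at a median of 0.138 (-0.292 to 0.460, 101 of 171 pairs over 0.1), against -0.049 for other numbers, and 30 of 39 arrays correlated best with their own number. This is a hint of pairing from the data. As the labels do not tie numbers to dogs and not every pair was over 0.1, the numbers were not taken as pairs. Values near the array median of about 4 cannot resolve small differences in the podocyte genes or PAX2.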
